A study of Mus musculus with 56 samples.

Results

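The regions described here are the places in the genome of resting mouse macrophages where the histone deacetylases HDAC1 and HDAC2 were both found and HDAC3 was not. Overlapping peaks (at least 1 bp) of the 6 untreated HDAC1, HDAC2 and HDAC3 samples were merged, which gave 40815 regions. A region was kept when it had a peak in both HDAC1 samples and both HDAC2 samples and in neither HDAC3 sample, and 4254 of the 40815 regions met this rule. They are called HDAC1/2-only regions below, and the 5477 regions with a peak in all 6 samples are called co-bound regions. Because the untreated HDAC1, HDAC2 and HDAC3 peaks chose the regions, their values are given as a description with no test.

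The macrophages (BMDMs) were grown from the bone marrow of wild-type C57BL/6 mice, 8 to 12 weeks old, over 6 days in L929-conditioned medium, so each sample is a bulk culture of primary cells. In the 1 hr experiment, untreated cells (ctrl) and cells given 20 ng/ml IL-4 for 1 hr (1hIL4) were compared, with 2 samples per group for each of HDAC1, HDAC2, HDAC3, H3K27Ac, p300, PU.1 and RNA polymerase II phosphorylated on serine 5 (RNAPII-pS5) or serine 2 (RNAPII-pS2). In the pretreatment experiment, cells with or without IL-4 for 24 hr were then left alone or given 100 ng/ml LPS for 1 hr, and p65, RNAPII-pS5 and RNAPII-pS2 were measured in 2 samples of each of the 4 groups. Cells were fixed with DSG and formaldehyde before ChIP-seq, a method that sequences the DNA bound by a protein.

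HDAC1 and HDAC2 are closely related class I deacetylases that remove acetyl groups from histone tails, and both work inside the Sin3, NuRD and CoREST complexes. HDAC3 is the deacetylase of the separate NCoR complexes. PU.1 is the lineage factor that opens macrophage enhancers, p300 is an acetyltransferase that deposits H3K27Ac, H3K27Ac marks active enhancers and promoters, and p65 is the NF-κB subunit that enters the nucleus after LPS.

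Sizes of values need a unit. For all antibodies except H3K27Ac, the score of a peak is a −log10 value from the peak caller, so a difference in score depends on depth as well as on binding, and the depth of the samples is unknown. For H3K27Ac the value is a signal of normalized tags over regions of fixed width. The number of peaks stands in for depth. HDAC3 had the fewest, 11985 and 8440 in the untreated samples, against 30511 and 26836 for HDAC1 and 23403 and 20954 for HDAC2. The first untreated p300 sample stood apart, with 44787 peaks against 66710 to 69360 in the other 3, and its median score over HDAC1/2-only regions was 16.2 against 47.2 in the other untreated sample. In the 4 RNAPII-pS2 peak lists made after 1 hr, the peak names give the opposite treatment to the labels, and the labels were kept here. For HDAC3, the sample labels and the methods give the catalogue number of the H3K27Ac antibody, and the list of reagents gives another. Which antibody was used was not settled here, so HDAC3 values are statements about these lists. H3K27Ac was in both untreated samples at 3163 (74.4%) of the 4254 HDAC1/2-only regions, 72.0% of co-bound regions and 58.4% of all regions. The rule fixed the lack of untreated HDAC3 peaks, and the part of the antibody in these shares was not tested. Of 8 macrophage markers, 7 had an RNAPII-pS5 peak nearest to them in both untreated samples of the 1 hr experiment, but only Mertk had one annotated to its promoter. The same counts, any peak and then promoter peak, were 2 and 1 of 4 neutrophil markers, 2 and 0 of 5 T cell markers, 1 and 0 of 5 B cell markers, and 1 and 0 of 3 dendritic markers. The neutrophil gene with a promoter peak was S100a8. Adgre1 (macrophage), Cd3g (T cell) and Ly6g (neutrophil) could not be matched to a gene name in the annotation. They were counted as without a peak but were not assessed.

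The sequences below come from 8 regions that carry the main findings. Each is 300 bases of the forward strand (RefSeq, GRCm38, the assembly of mm10) around the centre of the highest peak, in lower case, with matches to the motifs searched in capitals. The windows at Acvr1b, Npas4, Gm16532, 2010109A12Rik and Bub1 are shown because they belong to the regions with the highest HDAC1 and HDAC2 scores. Those at Pparg and Cnr2 had a listed H3K27Ac region only after and only before IL-4, and the one at Ikbke gained p65 after LPS. Capitals mark the E-box CACGTG at Acvr1b and the closest match to the RE1 element at Npas4 and Gm16532. At Gm16532 they also mark CCAAT, the AP-1 motif TGANTCA, the RUNX motif TGTGGTT and the E-box, at 2010109A12Rik the NRF1 motif GCGCATGCG on both strands, and at Bub1 CCAAT. At Pparg they mark the STAT motif TTCNNNGAA, the IRF motif GAAANNGAA and the TATA motif TATAAA. The capitals at Cnr2 are the GATA motif AGATAAG, the C/EBP motif TTGCNNAA, the CRE motif TGACGTCA and the CCAAT motif, and at Ikbke they are the STAT, CCAAT and TATA motifs.
Acvr1b, chr15:101196247-101196546: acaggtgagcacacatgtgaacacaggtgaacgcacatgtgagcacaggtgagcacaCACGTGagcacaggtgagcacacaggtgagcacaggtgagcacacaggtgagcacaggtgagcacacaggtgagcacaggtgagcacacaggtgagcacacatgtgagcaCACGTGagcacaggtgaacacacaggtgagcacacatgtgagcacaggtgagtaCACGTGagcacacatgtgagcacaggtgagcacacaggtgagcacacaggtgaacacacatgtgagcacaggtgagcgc
Npas4, chr19:4989059-4989358: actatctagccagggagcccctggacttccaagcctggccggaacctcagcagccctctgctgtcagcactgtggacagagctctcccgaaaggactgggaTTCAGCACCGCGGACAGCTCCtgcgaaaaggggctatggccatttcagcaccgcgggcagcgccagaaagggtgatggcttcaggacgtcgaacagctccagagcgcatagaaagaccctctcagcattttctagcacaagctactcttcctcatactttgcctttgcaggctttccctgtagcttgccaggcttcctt
Gm16532, chr7:6410065-6410364: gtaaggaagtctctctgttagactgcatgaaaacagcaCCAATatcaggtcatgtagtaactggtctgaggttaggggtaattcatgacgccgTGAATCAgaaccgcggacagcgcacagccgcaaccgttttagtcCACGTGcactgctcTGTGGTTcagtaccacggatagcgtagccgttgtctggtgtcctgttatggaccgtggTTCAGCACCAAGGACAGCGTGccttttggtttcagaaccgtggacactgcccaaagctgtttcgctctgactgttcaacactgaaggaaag
2010109A12Rik, chr5:93206543-93206842: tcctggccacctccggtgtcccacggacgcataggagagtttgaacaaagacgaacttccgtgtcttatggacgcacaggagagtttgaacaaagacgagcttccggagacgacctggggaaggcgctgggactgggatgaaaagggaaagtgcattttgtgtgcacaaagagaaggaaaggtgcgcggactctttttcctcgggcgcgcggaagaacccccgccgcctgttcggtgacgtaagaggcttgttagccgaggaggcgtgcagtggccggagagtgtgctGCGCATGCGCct
Bub1, chr2:127831617-127831916: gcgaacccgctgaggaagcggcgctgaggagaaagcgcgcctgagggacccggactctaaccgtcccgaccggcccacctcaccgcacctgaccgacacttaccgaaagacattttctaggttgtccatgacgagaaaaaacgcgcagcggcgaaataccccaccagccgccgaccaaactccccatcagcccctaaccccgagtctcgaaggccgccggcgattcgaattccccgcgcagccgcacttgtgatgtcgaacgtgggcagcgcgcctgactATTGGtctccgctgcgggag
Pparg, chr6:115380721-115381020: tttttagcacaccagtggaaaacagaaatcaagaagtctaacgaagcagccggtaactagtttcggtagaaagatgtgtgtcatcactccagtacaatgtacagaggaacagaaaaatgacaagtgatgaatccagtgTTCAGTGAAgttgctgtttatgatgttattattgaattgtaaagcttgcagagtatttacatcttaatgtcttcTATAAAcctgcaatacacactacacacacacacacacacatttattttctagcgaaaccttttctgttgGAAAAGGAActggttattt
Cnr2, chr4:135898453-135898752: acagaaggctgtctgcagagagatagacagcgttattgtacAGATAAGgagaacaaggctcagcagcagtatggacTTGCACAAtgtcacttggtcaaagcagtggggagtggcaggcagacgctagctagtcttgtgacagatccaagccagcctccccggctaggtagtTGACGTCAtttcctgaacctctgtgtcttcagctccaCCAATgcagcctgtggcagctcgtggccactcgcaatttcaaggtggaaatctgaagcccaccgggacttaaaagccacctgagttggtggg
Ikbke, chr1:131388983-131389282: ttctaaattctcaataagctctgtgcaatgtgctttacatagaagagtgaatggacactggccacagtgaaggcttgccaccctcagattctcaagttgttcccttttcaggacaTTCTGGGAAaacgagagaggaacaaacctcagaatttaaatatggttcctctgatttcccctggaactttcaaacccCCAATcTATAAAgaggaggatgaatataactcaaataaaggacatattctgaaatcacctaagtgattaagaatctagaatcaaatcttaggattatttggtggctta

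The highest scores of HDAC1 and HDAC2 fell on regions of different kinds, some with no other factor measured here. The region with the highest scores lay in intron 3 of Acvr1b, which encodes an activin receptor (chr15:101196165-101196675). HDAC1 scored 71.3 and 63.8 there and HDAC2 81.2 and 60.9 in untreated cells. It held p300 in only 1 untreated sample (6.31) and PU.1 in only 1 (21.5), and no H3K27Ac or RNAPII-pS5 in any sample of the 1 hr experiment. Its window held 18 copies of CAGGTG, counted on both strands after the values were seen, beside the 3 copies of CACGTG, and the part of this repetition in the scores was not tested.

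The next regions, at Npas4 and Gm16532, had no peak of p300, PU.1, H3K27Ac, RNAPII-pS5 or RNAPII-pS2 in any sample of the 1 hr experiment. Npas4, an activity-dependent transcription factor of neurons, had its region in intron 1, at 763 bp from the start (chr19:4988989-4989428). The scores there were 37.0 and 28.1 for HDAC1 and 42.9 and 34.9 for HDAC2. At the intergenic region −4961 bp from the start of Gm16532 (chr7:6410028-6410469), HDAC1 scored 51.6 and 25.3 and HDAC2 35.2 and 25.7. Both regions kept HDAC1 and HDAC2 peaks in both IL-4 samples, 31.0 to 56.6 at Npas4 and 34.2 to 44.9 at Gm16532.

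Promoters were also among the top regions. At the promoter of 2010109A12Rik (chr5:93206454-93206917), HDAC1 scored 48.3 and 35.1, HDAC2 21.39 and 18.96, and RNAPII-pS5 94.9 and 61.0 in untreated cells, with no PU.1. Bub1, a kinase of the mitotic spindle checkpoint, had HDAC1 scores of 68.2 and 67.4 at its promoter (chr2:127831500-127832038) but HDAC2 scores of 10.9 and 11.9. HDAC1 thus stood above HDAC2 in every untreated sample at Bub1, whereas at Acvr1b the ranges of both overlapped.

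The other 5 of the top 10 were at Nicn1, Celsr3, Vrk1, Arfgap2 and B3gntl1, where the 4 untreated scores ran from 17.1 (HDAC2 at Celsr3) to 39.5 (HDAC2 at Arfgap2). Vrk1, Arfgap2 and B3gntl1 had p300, PU.1, H3K27Ac and RNAPII-pS5 in both untreated samples, as most HDAC1/2-only regions did for p300 and PU.1. B3gntl1 was the only one of the 10 with an HDAC3 peak in both IL-4 samples (8.95 and 8.55).

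**Figure D1:**
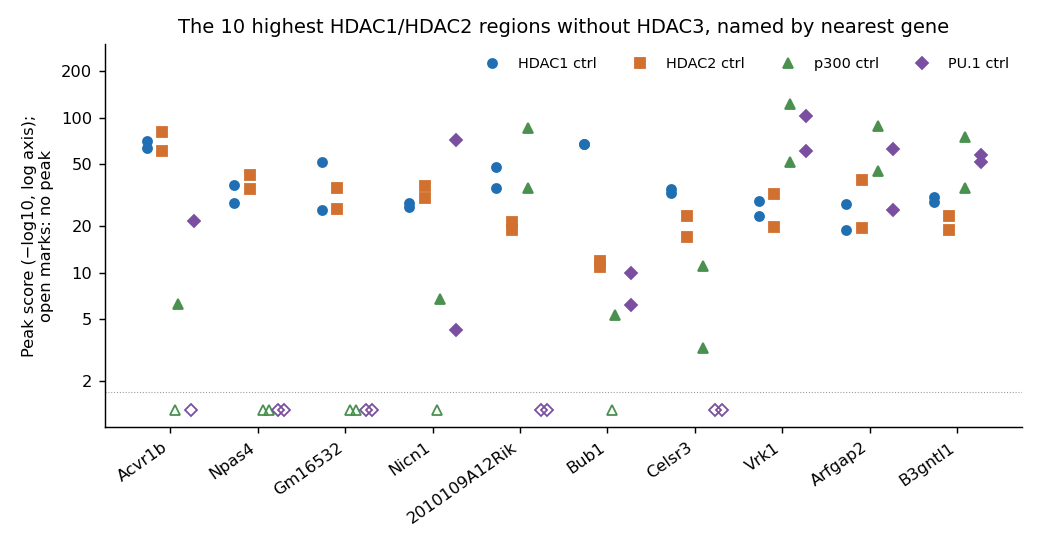
Peak scores (−log10 from the peak caller, log axis) of HDAC1, HDAC2, p300 and PU.1 in each untreated sample at the 10 HDAC1/2-only regions with the highest HDAC1 and HDAC2 scores, with open marks where a sample had no peak. Npas4 and Gm16532 have open marks for p300 and PU.1, and Bub1 has HDAC1 at 68.2 and 67.4 far above HDAC2 at 10.9 and 11.9.

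Matches to RE1 were searched for after the values of Npas4 and Gm16532 were seen. RE1 is the element bound by REST, a repressor of neuronal genes that recruits the Sin3 and CoREST complexes. The 21-letter element was allowed 4 mismatches on either strand. It was found in the windows of 11 HDAC1/2-only regions (0.259%), in 0 co-bound regions and in 84 of all 40815 regions (0.206%), so its share among HDAC1/2-only regions was close to that among all regions. Of the 11, 9 were among the 525 regions without PU.1 (1.71%) and 5 among the 233 regions whose HDAC1 and HDAC2 scores both reached the co-bound medians (2.15%), shares chosen after the values were seen. Npas4 and Gm16532, which led to the search, count in both groups. The share among all merged regions without PU.1 was not computed. The 11 regions were nearest to Npas4, Gm16532, Lin28a, Phf21b, Vstm2l, Xkr7, Lhx2, Swsap1, Vrk3, Fgd2 and Klf3. The closest matches were at Npas4 (2 mismatches) and at Gm16532, Lin28a, Phf21b, Vstm2l and Xkr7 (3 mismatches).

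Of these 11 regions, 9 had no peak of p300, PU.1, H3K27Ac or RNAPII-pS5 in any sample of the 1 hr experiment, and the exceptions were Fgd2 and Klf3. At Lin28a, which encodes an RNA-binding protein of early development, HDAC1 scored 14.5 and 12.7 and HDAC2 26.6 and 22.3 in untreated cells. With IL-4, the HDAC1 scores there were 17.65 and 15.97 and the HDAC2 scores 28.6 and 17.76. At Lhx2, a homeobox gene, the untreated scores were 9.88 and 4.74 for HDAC1 and 16.98 and 16.19 for HDAC2, and after IL-4 10.5, 5.08, 15.9 and 16.3. HDAC1 and HDAC2 were thus found at both sites before and after IL-4. Both HDAC1 scores at Lin28a were higher with IL-4 than without it, and the groups overlapped for HDAC2 at Lin28a and for HDAC1 and HDAC2 at Lhx2. At Fgd2, by contrast, H3K27Ac was 317.4 and 302.1 before and 360.3 and 378.7 after IL-4.

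Most HDAC1/2-only regions lay away from promoters. The annotation in the files placed 1960 (46.1%) in introns, 1347 (31.7%) between genes and 663 (15.6%) at promoters, with 100 (2.35%) in exons. Promoters took 4.56% of co-bound regions and 15.8% of all regions. The median distance to the nearest start site was 13840 bp, against 22305 bp for co-bound and 11348 bp for all regions, and 981 HDAC1/2-only regions (23.1%) lay within 1000 bp of a start, against 5.97% of co-bound regions. They were annotated to 3443 different genes, of which 2817 had 1 region and 626 had 2 or more. Klf3, which encodes a Krüppel-like repressor, had the most with 6, followed by Arhgap18, Fndc3a, Foxp1, Gm17746, Mbnl1 and Mgat5 with 5 each.

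PU.1 split the regions into kinds that differed in position and base content. PU.1 had peaks in both untreated samples at 3305 regions, in 1 sample at 424, and in neither at 525. Of the regions with PU.1 in both samples, 7.81% were promoters and 11.9% lay within 1000 bp of a start, the median distance was 17963 bp and the median GC content 47.0%. Of the 525 regions without PU.1, 272 (51.8%) were promoters and 398 (75.8%) lay within 1000 bp of a start, with a median distance of 234.5 bp and a GC content of 59.5%. CpG islands were the annotation of 9.71% of these and 0.756% of the regions with PU.1 in both samples. LTR elements of retroviral origin went the other way, at 0.952% and 7.62%. RNAPII-pS5 was found at 89.7% and 87.2% of the regions without PU.1 in the untreated samples, with median scores of 60.8 and 42.2, against 73.0% and 62.1% with medians of 11.4 and 9.93 where PU.1 was in both samples.

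**Figure D2:**
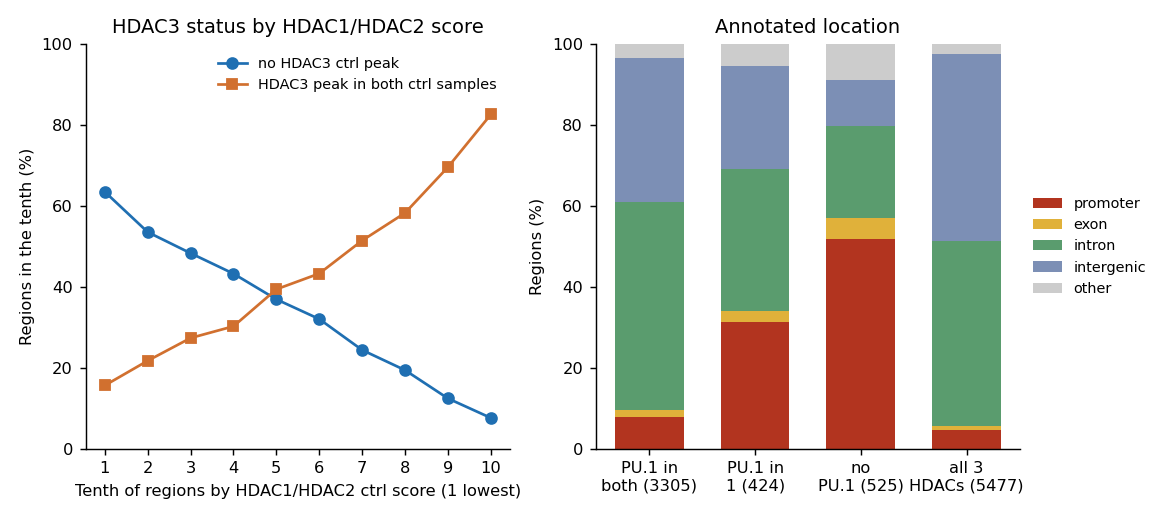
Left, the percentage of regions with no untreated HDAC3 peak and with HDAC3 in both untreated samples, in 10 equal steps of the HDAC1 and HDAC2 score among the 12459 regions with all 4 HDAC1 and HDAC2 peaks. Right, the percentage of regions by annotation for HDAC1/2-only regions with PU.1 in both samples, in 1 or in neither, and for co-bound regions. The share without HDAC3 fell from 63.5% to 7.62% from the lowest to the highest step, and promoters took 51.8% of the regions without PU.1.

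The motifs in the 300-base windows followed the same split. Each motif was searched on both strands, and a match is a match of letters only. The PU.1 motif GAGGAAGT was in 17.3% of HDAC1/2-only windows, 19.6% of co-bound windows and 13.02% of all windows, but in 1.71% of the windows without a PU.1 peak. Those windows had GGGCGG (GC box) in 40.6%, CACGTG in 16.2%, CCGGAAGT (ETS) in 8.57%, the NRF1 motif in 1.90% and TGACGTCA in 2.86%, against 16.1%, 7.09%, 1.93%, 0.407% and 0.782% of all windows. The regions without PU.1 were 51.8% promoters, against 15.8% of all regions. Motif shares among all merged regions without PU.1 were not computed, so these are not shown to be a trait of HDAC1/2-only regions. TGANTCA was in 14.7% and TGTGGTT in 8.77% of HDAC1/2-only windows, both below their shares in co-bound windows of 23.1% and 15.6%. The other motifs, all windows in brackets, were TTGCNNAA at 17.6% (17.3%), TTCNNNGAA at 8.93% (9.79%), GAAANNGAA at 14.3% (14.01%), GGGANTTCC (NF-κB) at 2.02% (2.03%), CTATTTTAG (MEF2) at 0.470% (0.402%), AGATAAG at 2.99% (3.14%), CCAAT at 28.2% (28.5%) and TATAAA at 12.3% (12.0%). These motifs differ in length, so their shares are to be compared between sets of regions and not with each other, and CCGGAAGT and GAGGAAGT share the letters GGAAGT.

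HDAC3 was missing mostly where HDAC1 and HDAC2 were low. Of the 12459 regions with all 4 HDAC1 and HDAC2 peaks, 4254 had no HDAC3 peak, 2728 had 1 and 5477 had both. The median of the geometric mean HDAC1 and HDAC2 score was 6.96 at HDAC1/2-only and 10.5 at co-bound regions. In 10 steps of equal size by this score, the share of regions without HDAC3 was 63.5%, 53.5%, 48.3%, 43.3%, 36.9%, 32.0%, 24.4%, 19.4%, 12.4% and 7.62% from lowest to highest. The co-bound share rose from 15.7% to 82.6%. Position differed at a like geometric mean score, however. In the lowest step 17.2% of HDAC1/2-only regions lay within 1000 bp of a start, and in the highest 37.9%. For co-bound regions this share was 3.69% to 8.96% in any step. The geometric mean can also be high where HDAC1 is far above HDAC2, as at Bub1. Of the 233 HDAC1/2-only regions whose HDAC1 and HDAC2 scores both reached the co-bound medians, only 11.2% lay within 1000 bp of a start. This share was 5.97% of all co-bound regions, so most of the difference in position was not seen where both scores were high. Promoters were 9.44% of these 233 regions. Without the first untreated HDAC3 sample the rule would have kept 6495 regions in place of 4254.

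The regions just inside the rule were weak. At the lowest, nearest to Rmdn2, HDAC1 scored 2.49 and 3.50 and HDAC2 2.68 and 3.42. Epm2aip1 (3.05 and 2.45, then 4.2 and 3.19) and Gm1968 (3.36 and 4.90, then 2.40 and 2.55) came next. None of these 3 had HDAC3 after IL-4 either. Just outside were regions with HDAC3 in 1 untreated sample at a score of 1.54 near Dleu2, 1.96 near Rab14 and 1.96 near Baz2b. Their HDAC1 and HDAC2 scores ran from 4.44 to 16.4, and none had an HDAC3 peak after IL-4.

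Most HDAC1/2-only regions held p300 and PU.1, and fewer than co-bound regions held RNAPII or p65. p300 was found at 93.7% and 98.7% of them in the untreated samples, PU.1 at 84.9% and 80.4%, H3K27Ac at 76.5% and 76.5%, RNAPII-pS5 at 75.7% and 66.6% and RNAPII-pS2 at 21.7% and 26%. Peaks in both samples were found for PU.1 at 77.7% of HDAC1/2-only, 95.9% of co-bound and 60.1% of all regions. For p300 these shares were 93.6%, 99.3% and 75.7%, for H3K27Ac 74.4%, 72.0% and 58.4%, for RNAPII-pS5 63.1%, 88.0% and 57.6%, and for RNAPII-pS2 19%, 31.3% and 18.4%. H3K27Ac was thus as frequent at HDAC1/2-only as at co-bound regions, while RNAPII-pS5 was less frequent. Counting an H3K27Ac region only when at least 50% of it lay inside the merged region lowered its share to 33.4%, since H3K27Ac regions are wider.

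p65 also differed between the sets. It was in both ctrl/ctrl samples at 12.0% of HDAC1/2-only and 49.0% of co-bound regions, and at 13.8% of all regions. After LPS the shares were 35.4%, 79.0% and 33.6%, and after IL-4 pretreatment and LPS 42.7%, 81.9% and 39.6%. The p65 lists grew in the same order, from 9706 and 9556 peaks in ctrl/ctrl to 26305 and 26820 after LPS. After IL-4 pretreatment and LPS they held 36738 and 38955 peaks. In the pretreatment experiment RNAPII-pS5 was found at 45.8% and 40.6% of HDAC1/2-only regions in ctrl/ctrl and at 24.1% and 26.7% after LPS. Over all regions it was at 40.4% and 37.7%, then at 26.8% and 28.2%. The RNAPII-pS5 lists were also shorter after LPS, with 14476 and 15349 peaks against 20803 and 19279. RNAPII-pS2 was found at 64.1% and 64.6% and at 48.5% and 49.8%, against 54.3% and 53.7% and then 46.5% and 46.6% of all regions. RNAPII-pS2 was thus more frequent than RNAPII-pS5 in this experiment and less frequent in the 1 hr experiment, over all regions as well. The reason for this order was not tested.

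**Figure D3:**
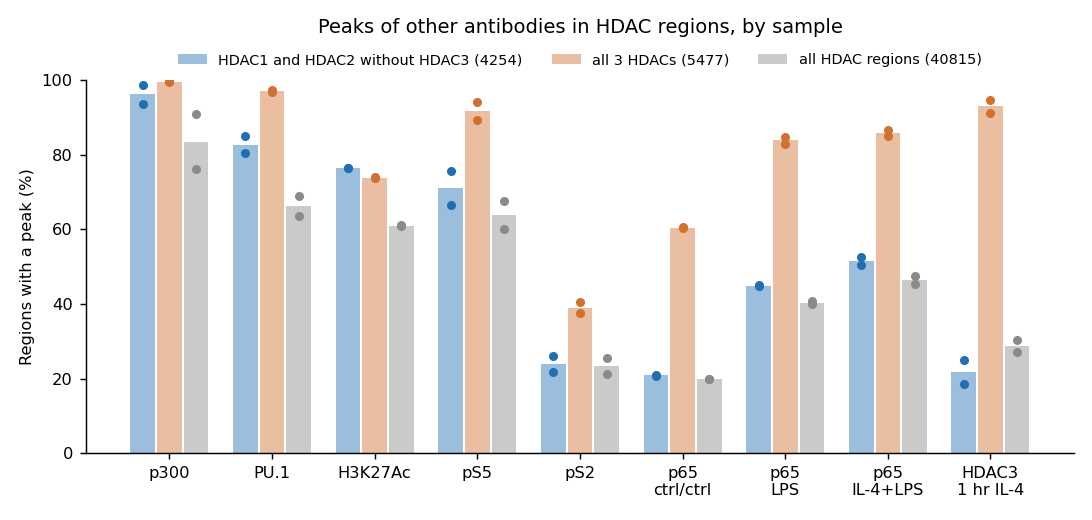
Percentage of HDAC1/2-only, co-bound and all merged regions with a peak of each antibody and condition, as bars for the mean of 2 samples with a dot for each sample. p300 and PU.1 bars are high in all sets. p65 is far lower at HDAC1/2-only than at co-bound regions and close to its share of all regions. HDAC3 after IL-4 is also lower than at co-bound regions, but untreated HDAC3 peaks chose both of these sets.

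After 1 hr of IL-4 HDAC1 and HDAC2 kept a peak at most of the regions, and HDAC3 had a peak at some of them. These changes share the untreated samples with the rule and carry no test. HDAC1 was found at 76.7% and 72.6% of the HDAC1/2-only regions after IL-4 and HDAC2 at 88.8% and 71.4%. The rule required a peak in all untreated samples, so these shares could only fall. Over the 2622 regions with HDAC1 in all 4 samples the median log2 change was 0.02 (quartiles −0.30 and 0.36), and over 2849 regions with HDAC2 in all 4 it was −0.02 (quartiles −0.38 and 0.35). Regions that lost a peak are not in these medians. Each sample was first centred on its own median over all merged regions with a peak in all 4 samples. The medians over all such regions were 0.006 for HDAC1 and −0.025 for HDAC2. Because of the centring, these medians do not show that HDAC1 or HDAC2 stayed the same. HDAC1 was lost from both IL-4 samples at 525 regions (12.3%) and HDAC2 at 288 (6.77%), against 3.71% and 0.730% of co-bound regions. Of all regions, which need not have had an untreated peak, 37.6% and 36.4% had none after IL-4. The HDAC1 lists were also shorter after IL-4, with 23270 and 22340 peaks against 30511 and 26836. For HDAC2 they held 28017 and 19683 against 23403 and 20954.

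HDAC3 was found at 1064 (25%) and 790 (18.6%) of the regions after IL-4, with median scores of 5.85 and 5.61, and in both samples at 467 (11%). At 2867 regions (67.4%) it was found in neither. The rule required no untreated HDAC3 peak, so this share could only rise, and the HDAC3 lists were also longer after IL-4, with 13599 and 11971 peaks against 11985 and 8440. HDAC3 in both IL-4 samples was seen at 2.93% of the other 23526 regions without HDAC3 in untreated cells, at 88.5% of co-bound regions, at 1.52% of the HDAC1/2-only regions without PU.1 and at 25.3% of the 233 with high HDAC1 and HDAC2. Its highest values among the named regions were in an intron of Pak2, a p21-activated kinase, with no peak before IL-4 and 57.2 and 59.8 after it. At the same Pak2 region p300 went from 2.33 and 29.7 to 208.0 and 164.1, and PU.1 from 69.2 and 53.1 to 190.0 and 194.4. At an intergenic region 24348 bp from the start of Tlr4, the receptor for LPS, HDAC3 was absent in untreated cells and scored 29.3 and 42.3 after IL-4.

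H3K27Ac, which the rule did not use, changed at many HDAC1/2-only regions in both directions. The log2 signal was tested with limma over all regions that had a value in 2 or more of the 4 samples, at a Benjamini-Hochberg adjusted p of at most 0.1. By this test 686 of 3304 HDAC1/2-only regions tested were higher after IL-4 (20.8%) and 1025 were lower (31.0%). Of all 25672 regions tested, 22.7% were higher and 29.2% lower, so the HDAC1/2-only regions were near the background in both directions. Their median log2 change was −0.06, and that of co-bound regions −0.23, with 923 higher and 1939 lower of 4135. Among the 456 tested regions without PU.1, 107 were higher and 47 lower, with a median of 0.09. Without the first IL-4 sample 452 regions were called higher, and without either untreated sample 572 were called lower.

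The strongest gains at regions with an H3K27Ac value in all 4 samples lay near genes of varied roles. These were picked after the values were seen, and their adjusted p-values are from limma over regions with all 4 values. At a region 90362 bp from the start of Socs1, an inhibitor of JAK-STAT signalling, and inside an intron of a neighbouring gene (chr16:10694921-10695427), H3K27Ac was 24.3 and 25.3 without IL-4, then 219.2 and 226 with it. The groups were far apart, with a log2 change of 3.21 (SE 0.073, adjusted p = 6.59e-05). In bulk cultures, a change in the share of cells that carry a mark and a change per cell cannot be told apart. p300 at this region went from 9.27 and 26.04 to 275.8 and 264.8, and PU.1 from 20.2 and 13.4 to 94.8 and 82.5.

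Chn2, which encodes a GTPase-activating protein for Rac, had 18.4 and 19.1 before and 139.7 and 153.4 after IL-4 at an intronic region (log2 change 3.01). For Pecam1, an adhesion receptor, the values at −1469 bp from the start were 23.3 and 23.7, then 163.2 and 167.3 (2.86). Gprc5c, an orphan G protein-coupled receptor, had 21.2 and 16.9, then 129.1 and 129.8 (2.82). At all 3 the IL-4 samples lay far above the untreated ones. HDAC3 appeared at these regions after IL-4 in both samples, with 12.2 and 23.1 at Chn2, 9.98 and 15.1 at Pecam1 and 10.7 and 6.40 at Gprc5c. The part of the HDAC3 antibody in this was not tested. The rule required no untreated HDAC3 peak, so HDAC3 could only appear. Its share over all regions with H3K27Ac called higher or lower was not computed.

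The largest losses with a value in all 4 samples were smaller than the largest gains. At a region 281143 bp from Zfat, a zinc finger gene, H3K27Ac fell from 124.3 and 120.6 to 40.7 and 33.3 (log2 change −1.69, SE 0.11, adjusted p = 0.00024). At Cacnb4, a calcium channel subunit, it was 85.6 and 84.7, then 28.5 and 29.2 (−1.52), and at Alpl, alkaline phosphatase, 43.3 and 45.6, then 19.9 and 11.8 (−1.49). At Tmem72 and Stk17b the changes were −1.58 and −1.50. No HDAC3 peak was found at Cacnb4, Alpl, Tmem72 or Stk17b after IL-4, and 1 (4.38) was found at Zfat. HDAC3 was in neither IL-4 sample at 67.4% of all HDAC1/2-only regions. As the regions named for gains and losses were picked by size of change, no link of HDAC3 to the direction of H3K27Ac is read from them.

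**Figure D4:**
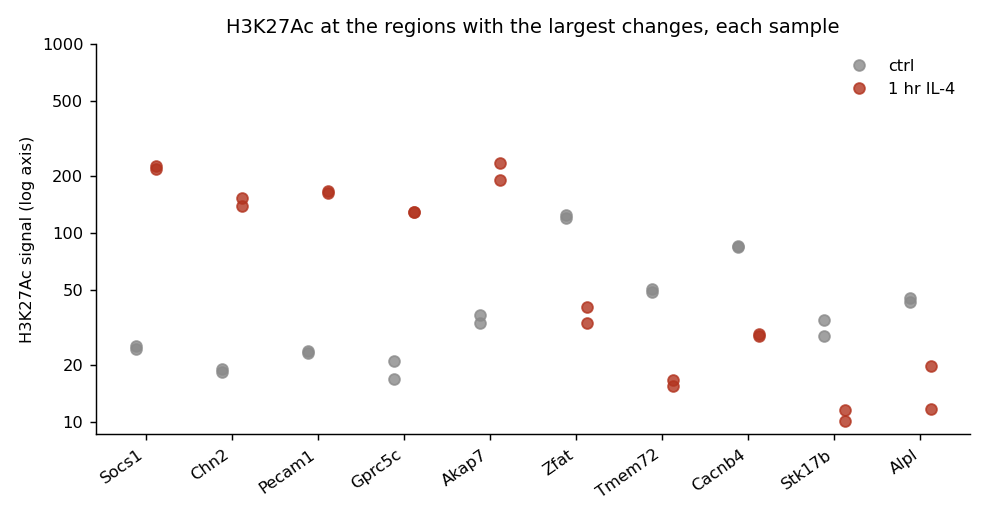
H3K27Ac signal (normalized tags, log axis) in each untreated and IL-4 sample at 10 HDAC1/2-only regions with an H3K27Ac region in all 4 samples, the 5 largest gains and the 5 largest losses. The 2 samples of a group lie close together, as at Socs1 (24.3 and 25.3 against 219.2 and 226).

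Regions with no listed H3K27Ac region before IL-4, or none after it, had the largest fitted changes. In an intron of Pparg, a nuclear receptor of alternative activation (chr6:115380697-115381236), there was no H3K27Ac region before IL-4 and 276.5 and 297.2 after it. The fitted log2 change was 5.02 (SE 0.062, adjusted p = 7.82e-05) and depends on the floor given to a missing region. Ptpn6, the phosphatase SHP-1, had no region before and 495.7 and 474.2 after IL-4, and Spsb2 and Rbm47 behaved likewise with 413.6 and 435.0, and 405.6 and 374.9. In the other direction, Tm4sf19 had 527.4 and 468.0 in untreated cells and no region after IL-4, Cnr2, the peripheral cannabinoid receptor, 420.5 and 405.2, and Tns3 324.8 and 296.8. A missing region can also come from a shifted boundary. Of the 1711 called HDAC1/2-only regions 173 (10.1%) lacked an H3K27Ac region in some sample, and 12 of these had a region within 1000 bp in every file that lacked one. Neighbouring regions farther away than 1000 bp were not looked for. The study called H3K27Ac regions with a minimum distance between them, so a missing region does not show that H3K27Ac was absent. Of the genes picked by size of change, 1810013L24Rik, Rgs2 and Itga4 had such a neighbouring region and are not described further.

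H3K27Ac near IL-4-induced genes of clusters A to C and near IL-4-repressed genes changed in opposite directions, and near genes of cluster D it did not lean one way. The groups are RNA-seq clusters that the study drew from matching cells, so the direction is not independent evidence. HDAC1/2-only regions near IL-4-induced genes (clusters A to C) numbered 204 (4.80% of such regions, against 5.49% of all and 7.41% of co-bound regions), and those near IL-4-repressed genes (cluster E) numbered 286 (6.72%, against 7.66% and 11.2%). H3K27Ac was higher at 86 and lower at 15 of 149 tested near induced genes, with a median of 0.42 (57.7% and 10.1%, against 60.1% and 14.3% of all regions near these genes). Near repressed genes it was higher at 11 and lower at 101 of 188, with a median of −0.37 (5.85% and 53.7%, against 9.26% and 56.99%). At the 148 HDAC1/2-only regions near cluster D genes it was higher at 35 and lower at 26 of 112 tested, with a median of 0.09 (31.25% and 23.2%, against 27.8% and 28.4%). Over all regions near genes of clusters A to C and E the medians were 0.47 and −0.37, so HDAC1/2-only regions differed little from the rest.

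p300 was called higher at more HDAC1/2-only regions than lower, as over all regions, and PU.1 passed the test at none. p300 was higher at 240 of 4211 regions (5.7%, against 6.13% of all regions) and lower at 57 (1.35%, against 2.49%). Near IL-4-induced genes 33 of 204 were higher (16.2%) and 1 lower (0.490%), against 16.3% and 1.75% of all 2112 regions tested near these genes, so the share of gains was that of the background. These counts depend on single samples. Without the first untreated sample, which stood apart, 192 were higher and 11 lower, without the other untreated sample 717 and 382, and without either IL-4 sample 0 and 0. With no centring of the samples 33 were higher and 0 lower.

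At the promoter of Matk, a kinase that inhibits Src family members, p300 was absent and 5.67 before IL-4, then 144.3 and 149.2 (log2 change 4.94, SE 0.23, adjusted p = 0.037). At Actr2, a subunit of the actin-nucleating Arp2/3 complex, p300 went from absent and 6.44 to 61.3 and 79.9 (3.78). In both cases the IL-4 samples lay far above both untreated samples. Asap1 and Nek7 were absent in the first untreated sample, with 36.2 and 27.3 in the other, and reached 264.5 to 270.9 and 180.9 to 183.9. Zeb2, a transcription factor of macrophage identity, was called lower at an intergenic region, with 55.5 and 150.1, then 40.6 and 46.1 (−1.77). The first untreated value there lay near the IL-4 values. Ptprj, Snrnp35, Myo1f and Mir5130 were called lower in the same way, with log2 changes of −1.82 to −1.86.

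PU.1 was called at 0 of 3678 regions in either direction by limma, as at 0.0% of all regions tested. At an unadjusted p of at most 0.05, 136 were higher and 117 lower. The replicate differences of PU.1 had an SD of 0.72 on the log2 scale, larger than for p300 (0.50) or H3K27Ac (0.17), and a p that misses the threshold does not show that PU.1 stayed the same. At the Socs1 region described above, for example, the log2 change of PU.1 was 2.05 (SE 0.34, limma adjusted p = 0.2).

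RNAPII-pS5 changed at few HDAC1/2-only regions. It was higher at 75 of 3108 (2.41%, against 2.67% of all) and lower at 125 (4.02%, against 3.99%). Near induced genes 17 were higher and 4 lower of 154 (11.04% and 2.60%), close to the 10.7% and 3.01% of all 1530 regions tested there. Near repressed genes 2 were higher and 17 lower of 191 (1.05% and 8.90%), against 1.24% and 7.71% of 2023. Of the 200 calls 165 (82.5%) rested on a missing peak, and without any 1 of the 4 samples 0 regions were called. Itsn2, an endocytic scaffold, had no RNAPII-pS5 in an intron before IL-4 and 29.0 and 27.4 after it (log2 change 4.12, SE 0.29, adjusted p = 0.056). Chst11, a chondroitin sulfotransferase, had 27.1 and 21.3 at its promoter and no peak after IL-4 (−3.66, SE 0.23, adjusted p = 0.056). Atxn7l3b, Ap2s1, 1810026B05Rik and Pak2 were also higher and Icam2, Zfpm1, Gm13498 and Bbs9 also lower, each with peaks in both samples of the higher group. p300 at Itsn2 went from 9.75 and 32.2 to 126.95 and 126.63, and at Atxn7l3b from 12.4 and 54.3 to 299.2 and 298.1.

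RNAPII-pS2 was higher at 54 of 1125 (4.8%, against 5.15% of all) and lower at 49 (4.36%, against 6.21%), with the direction read from the sample labels. Near induced genes 3 were higher and 12 lower of 46, with a median of −0.98, and near repressed genes 7 were higher and 1 lower of 56, with a median of 0.45. Over all regions the medians were −0.95 and 0.42, the reverse of RNAPII-pS5 (0.23 and −0.29), H3K27Ac and p300 (0.30 near induced genes), and the peak names carry the opposite treatment to the labels. No statement on direction is made from RNAPII-pS2 for this reason. Akap7, for example, had RNAPII-pS2 at 20.2 and 17.1 in the samples labelled untreated and none in those labelled IL-4, where RNAPII-pS5 went from 3.51 and 5.64 to 22.04 and 25.28. Of the 103 calls 98 (95.1%) rested on a missing peak, and leaving out any 1 sample left 0.

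**Figure D5:**
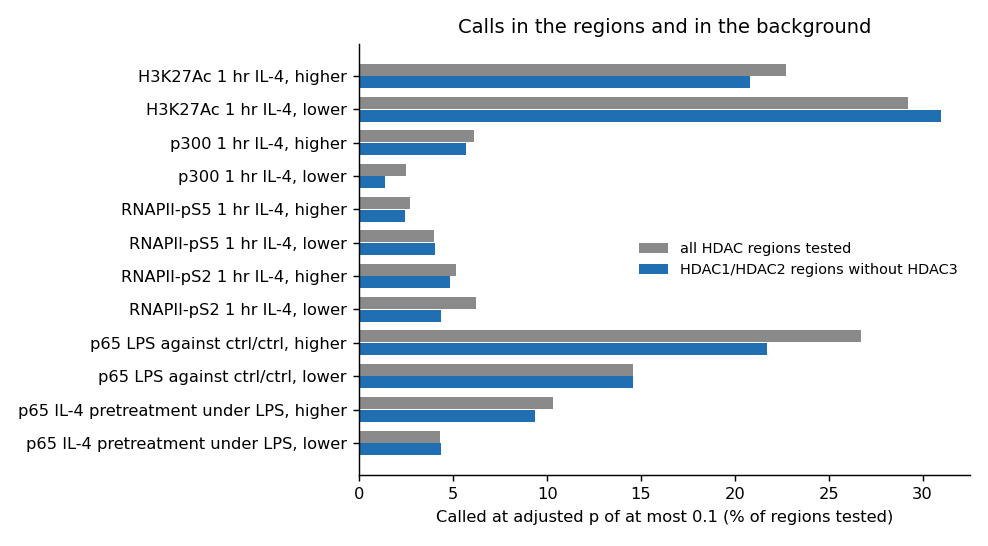
Percentage of tested regions called higher or lower at an adjusted p of at most 0.1, for HDAC1/2-only regions and for all merged regions, by antibody and comparison. Some paired bars lie close together, such as 4.02% and 3.99% for RNAPII-pS5 lower, and others apart, such as 21.7% and 26.7% for p65 higher with LPS and 1.35% and 2.49% for p300 lower.

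p65 had a peak in both samples at more HDAC1/2-only regions after LPS (35.4%) than in ctrl/ctrl (12.0%), but the balance of gains and losses in score turned with the settings. Among regions where 2 or more of the 8 p65 samples had a peak, 562 of 2584 were higher after LPS (21.7%, against 26.7% of all) and 376 were lower (14.6%, against 14.6%). Of the lower calls 145 had no p65 peak in either group and got their change of −1.09 from the centring alone. A limit added after this was seen kept regions where 2 or more of the 4 samples compared had a peak, and then 599 of 1778 were higher (33.7%, against 38.6%) and 178 lower (10%, against 10.4%). With no centring 1015 were higher and 65 lower. The balance turned with a floor 4 times as high (272 higher and 1692 lower) and where every sample had a peak (38 and 84), so no direction over all the regions is read from these counts. Of the 938 calls 843 (89.9%) rested on a missing peak.

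The named p65 gains were large in every LPS sample. At a region in an intron of a neighbouring gene, −109569 bp from the start of Ikbke, which encodes an IκB kinase (chr1:131388937-131389301), p65 had no peak in the 4 samples without LPS, 74.6 and 58.0 after LPS and 56.2 and 55.5 after IL-4 and LPS (log2 change for LPS 4.56, SE 0.26, adjusted p = 0.0013). At another region 108657 bp from Socs1, p65 was absent in ctrl/ctrl, 4.57 and 4.78 after IL-4 alone, 70.0 and 59.1 after LPS and 82.6 and 63.0 after both. In an intron of Rel, an NF-κB subunit, the untreated samples had no peak and 8.05, IL-4 gave 30.6 and 9.48, LPS 110.5 and 121.1, and both together 135.4 and 141.8. LPS and non-LPS samples did not overlap at any of the 3. The Ikbke window shown above has no match to GGGANTTCC.

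Cyth3, a GTP exchange factor, had p65 at 10.7 and 15.8 in ctrl/ctrl and no peak after LPS (log2 change −4.40), and 3300005D01Rik, Gm17746, Fbxl22 and Dpysl4 were lost in the same way from ctrl/ctrl scores of 6.70 to 15.6. Each had a peak in both ctrl/ctrl samples and in neither LPS sample.

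IL-4 pretreatment changed p65 under LPS at fewer regions. p65 was higher at 241 of 2584 (9.33%, against 10.3% of all) and lower at 112 (4.33%, against 4.28%). With the same limit on the 4 samples compared, 261 of 2296 were higher (11.4%, against 11.9%) and 123 lower (5.36%, against 5.1%). Without the first or the other IL-4 and LPS sample 29 and 33 were higher, and without the first or the other LPS sample 54 and 57 were lower. Of the 353 calls 341 (96.6%) rested on a missing peak. The LPS change itself was higher with IL-4 pretreatment than without at 133 of 2584 regions (5.15%, against 5.48% of all) and lower at 125 (4.84%, against 4.9%). At the last intron of Cd200r3, a receptor of the CD200R family, p65 had no peak in ctrl/ctrl or after LPS, 15.9 and 14.5 after IL-4 and 42.9 and 49.5 after both (log2 change 4.89, SE 0.24, adjusted p = 0.0038). The promoter of Stil, a centriole gene, had p65 only after both, at 18.3 and 20.9. Fam102a went the other way, from 19.3 and 16.9 after LPS to no peak after both (−4.04, SE 0.78, adjusted p = 0.027).

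Lists of genes with a known role in these cells held few of the regions, and the genes named from them were chosen with their values in view. Of 32 genes of the IL-4 pathway and alternative activation, 8 had an HDAC1/2-only region nearest to them, 13 regions in all (0.306% of HDAC1/2-only regions, against 0.712% of co-bound and 0.434% of all regions). H3K27Ac was higher at 5 of the 8 tested and lower at 0, with a median of 1.06, and p300 was higher at 3 of 13. Over all regions tested, H3K27Ac was higher at 22.7% and lower at 29.2%, and p300 was higher at 6.13%. Shares over all regions near the genes of each list were not computed. The small counts of this list and the lists below are therefore not read as results about HDAC1/2-only regions. At the Socs1 promoter H3K27Ac went from 175 and 168.4 to 683.7 and 646 (log2 change 2.00, adjusted p = 0.00066), and p300 from 15.8 and 25.7 to 218.6 and 213.4 (2.73). HDAC3, absent in untreated cells, scored 9.08 and 10.8 there after IL-4. Cdh1, an epithelial adhesion gene induced in alternative activation, had H3K27Ac at 124.0 and 110.3, then 321.5 and 345.4 in an intron (1.56). HDAC3 scored 17.4 and 16.6 at that Cdh1 region after IL-4.

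Of 34 genes of NF-κB and Toll-like receptor signalling, 10 had 12 regions (0.282%, against 0.749% of co-bound and 0.451% of all regions), with H3K27Ac higher at 3 and lower at 4 of 12. Near Tlr4, the fitted changes at neighbouring regions had opposite directions, and both rested on a missing H3K27Ac region, with the limits given above. At 29397 bp from the start, H3K27Ac was 70.0 and 62.2 and then absent (log2 change −2.81), and at 24348 bp it was absent and then 255.0 and 252.4 (4.85). At the region of Rel named above H3K27Ac went from 32.8 and 33.1 to no region (−1.81), and at Map3k7, which encodes the kinase TAK1, from 112.4 and 114.7 to 52.3 and 64.2 (−0.93). At Tlr2, another Toll-like receptor, p65 was 3.27 and 5.99 after LPS and absent with IL-4 pretreatment (−2.00).

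Of 27 macrophage lineage genes, 26 were matched by name. Of these, 8 had 13 regions, or 0.306% of HDAC1/2-only regions, against 1.10% of co-bound and 0.566% of all regions. Runx1, a factor of blood cell identity, gained H3K27Ac at 2 of its 4 regions, from 137.2 and 135.9 to 282.4 and 278.8 and from 162.4 and 159.3 to 304.6 and 299.6. Maf, a macrophage factor, lost it at a region 277202 bp from its start, from 200.5 and 197.8 to 86.1 and 95.5 (−1.09).

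Of 28 genes of the class I HDAC complexes, 4 had 6 regions (0.141%, against 0.201% of co-bound and 0.238% of all regions), with H3K27Ac higher at 0 and lower at 3 of 5. Tbl1xr1, a subunit of the NCoR complex, had 287.9 and 289.0 at a distant region and 106.6 and 119.8 after IL-4 (−1.31).

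Of 33 genes of DNA replication and the cell cycle, 7 had 11 regions (0.259%, against 0.237% of co-bound and 0.279% of all regions), with H3K27Ac higher at 4 and lower at 2 of 8. Over the 525 regions without PU.1, 51.8% of them promoters, HDAC1 stood above HDAC2, with median scores of 11.6 and 9.66 against 5.47 and 4.87 in untreated cells. Promoters of this list had the same order, with 20.5 and 26.8 against 4.27 and 2.80 at Orc1, which encodes a subunit of the origin recognition complex. At Cdc6, a replication licensing gene, the scores were 23.9 and 15.9 against 5.66 and 2.96. The promoter of Rpl4, a ribosomal protein gene, had 23.9 and 37.1 against 7.97 and 8.71. At Cdkn1a, the cell cycle inhibitor p21, H3K27Ac went from 22.7 and 27.8 to 79.1 and 80.2 (log2 change 1.71), with p300 higher as well (1.55).

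Of 29 inflammatory genes, 5 had 6 regions (0.141%, against 0.529% of co-bound and 0.225% of all regions), with H3K27Ac higher at 1 and lower at 2 of 5. Il10, an anti-inflammatory cytokine, had no H3K27Ac region before IL-4 and 97.7 and 101.7 after it at 23121 bp from its start (3.50). Il12b, a subunit of IL-12, had 47 and 39.7, then 21.5 and 25 (−0.85), and Il6 had 56.8 and 54.0, then 45.4 and 43.0 (−0.28). p65 at the Il12b region was 9.52 and 7.93 after LPS and absent with IL-4 pretreatment (−2.98). Among 22 interferon response genes, 4 had 5 regions (0.118%, against 0.310% of co-bound and 0.194% of all regions), with H3K27Ac higher at 2 and lower at 1 of 5. At the Irf1 promoter it was 265.5 and 258.1, then 340.1 and 350.6 (0.44). Lysosomal genes had 6 regions at 5 of 23 genes (0.141%, against 0.274% of all regions), ribosomal protein genes 3 at 3 of 29 (0.0705%, against 0.142%) and histone acetyltransferases 3 at 3 of 9 (0.0705%, against 0.0784%).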

How the data were processed

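ChIP-seq peak lists of macrophages were analysed, 56 files with 2 samples per group. Per the labels and the study's methods, the authors aligned reads to mm10 with BWA 0.7.10, used SAMtools 0.1.19, and called peaks with MACS2 2.0.10 at a q cut-off of 0.01. The deposited −log10 scores of these peaks were used as they stand. H3K27Ac regions were called by the authors with HOMER 4.2, and their deposited signal values are normalized tags per region. Files give no read numbers, so the depth is unknown and peak numbers limit the precision.

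The regions and gene lists were chosen with earlier results of these data known. Overlapping peaks were merged (at least 1 bp), and each region took the highest score per sample. For each antibody log2 scores were centred on the median of regions with a peak in all samples, a missing peak was set to a floor (the antibody's lowest score), and regions with a peak in at least 2 samples were tested with limma 3.58.1 (R 4.3.3), with Benjamini-Hochberg adjustment over all of them and a threshold of 0.1. An exact permutation test of 2 against 2 cannot go under p = 0.333. Named were the 10 regions with the highest scores, up to 5 called regions with the largest change per comparison and direction, up to 3 per gene list, and the 3 just inside and outside the rule. Chosen after the values were seen were the RE1 search, the grouping by RNA-seq cluster (gene names only, from the study), the sequences shown, the 10 regions with H3K27Ac in all 4 samples and the other genes named from the lists. Sequences and motifs were read from RefSeq GRCm38 with pysam 0.24.0, and tables were made with Python 3.11.15, numpy 2.4.6 and pandas 2.3.3. Samples were called biological replicates by the study. The library kit of each sample was not given in the sources used here. Some values of genes on the lists are not reported here.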

Additional observations from a re-analysis of the deposited data

Results flagged for a closer look

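The change of p65 with LPS differed with IL-4 pretreatment by a test of the difference itself (the interaction term in limma, adjusted p of at most 0.1). It was higher with pretreatment at 133 HDAC1/2-only regions and lower at 125 of 2584, shares of 5.15% and 4.84% against 5.48% and 4.9% of all regions tested. Of these 258 calls 254 (98.4%) rested on a missing peak in at least 1 sample.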

How the results depend on the processing

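The number of HDAC1/2-only regions was 1861 with the upper 50% of peaks in each list, 747 with the upper 50% of HDAC1 and HDAC2 peaks alone, and 414 with HDAC1 and HDAC2 cut to the number of HDAC3 peaks, an alternative added after the data were seen. The promoter share was 7.42%, 10.04% and 11.8% in these, 18.1% without HDAC3 in any of the 4 samples, 31.03% by GENCODE start sites and 9.44% for the 233 regions with high scores. Leaving out a sample gave 4739 to 6495 regions with 12.6% to 21.1% promoters.

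Counts are given as higher and lower. With an unadjusted p of at most 0.05 they were 562 and 342 for p300, 136 and 117 for PU.1, 220 and 355 for RNAPII-pS5, 102 and 100 for RNAPII-pS2 and 382 and 186 for p65 with IL-4 under LPS. Among the 233 regions with high scores they were 33 and 68 for H3K27Ac, 10 and 1 for p300, 4 and 13 for RNAPII-pS5, 2 and 2 for RNAPII-pS2, 24 and 27 for p65 with LPS and 9 and 10 with IL-4 under LPS. With a floor 4 times as high they were 260 and 86 for p300, 7 and 1 for PU.1, 44 and 27 for RNAPII-pS5, 25 and 21 for RNAPII-pS2, 272 and 1692 for p65 with LPS and 271 and 177 with IL-4 under LPS. With no centring they were 33 and 0 for p300, 31 and 75 for RNAPII-pS5 and 1015 and 65 for p65 with LPS. With a peak in every sample, so fewer regions, they were 452 and 290 for p300, 1 and 1 for RNAPII-pS5, 2 and 3 for RNAPII-pS2, 38 and 84 for p65 with LPS and 7 and 3 with IL-4 under LPS. Where 2 or more of the 4 samples compared had a peak, a limit added after the data were seen, p65 with LPS gave 599 and 178. The causes of these shifts were not tested, other than where fewer regions or samples were used.

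With the replicate block they were 56 and 3 for p300, 0 and 0 for RNAPII-pS5 and for RNAPII-pS2. Deviations of same-numbered samples correlated at −0.038 to 0.089. Such correlations cannot show whether same-numbered samples were prepared together, and the labels give only replicate numbers. Leaving out a sample gave 452 to 499 and 572 to 845 for H3K27Ac, 0 to 717 and 0 to 382 for p300, 0 for PU.1, RNAPII-pS5 and RNAPII-pS2, 407 to 482 and 253 to 286 for p65 with LPS, and 29 to 252 and 54 to 80 with IL-4 under LPS.

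The share of regions with a peak in both samples, with 50% of the peak inside the region, was 75.6% for PU.1, 85.5% for p300, 33.4% for H3K27Ac, 52.7% for RNAPII-pS5 and 13.2% for RNAPII-pS2. With the upper 50% of peaks it was 62.5%, 64.7%, 43.9%, 33.9% and 10.4%, and 1.74% for HDAC3 after IL-4. Among the 233 regions with high scores it was 89.7%, 94.4%, 71.2%, 60.9%, 10.7% and 25.3%. p300 in the second untreated sample alone, an addition, was at 98.7%. Of 189 values recomputed, 71 stayed within the limits set and 118 moved. Each count was labelled on its own, so a turn in the balance of higher and lower has no label of its own. Unknown depth limits all scores.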
